A study of Mus musculus with 8 samples.

Results

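AP-1 is a family of transcription factor dimers built from basic leucine zipper proteins. Jun proteins can pair with each other or with Fos proteins, Fos proteins need a Jun partner, and Atf3 pairs with Jun proteins or with itself and often acts as a repressor induced by stress. Many of these genes are immediate-early genes, transcribed within minutes of a growth factor, cytokine or stress signal and silenced again soon after, with short-lived messenger RNAs. Ets2 belongs to the separate Ets family, is activated by the Ras and ERK pathway, and can act together with AP-1 at shared promoters. In fat cells, AP-1 factors have been studied for their part in differentiation, inflammation and the response to oxidants.

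The 9 genes described here were chosen by symbol: the Jun genes Jun, Junb and Jund, the Fos genes Fos, Fosb, Fosl1 and Fosl2, the related factor Atf3, and Ets2. They are 9 of the 18193 genes with a probe set named by 1 symbol, and they hold 15 of 34945 such probe sets. Each gene was read from the probe set that was brightest on average over the 8 arrays, and the other probe sets served as a check. A value below is a log2 intensity, and a difference is between group means on that log2 scale.

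Total RNA came from 3T3-L1 adipocytes (fat cells grown from a line of mouse fibroblasts), which had been made insulin resistant in 1 of 3 ways. The CI group was exposed to chronic insulin (2 arrays), the TNF group to tumour necrosis factor (TNFα, an inflammatory cytokine, 3 arrays) and the Dex group to dexamethasone (a synthetic glucocorticoid, 3 arrays). MnTBAP, an antioxidant that enters cells, was present in all 3 groups over the last 6 hours. Doses and lengths of the model treatments are not given in the sources used here. Neither untreated cells nor cells without MnTBAP were analysed here, so every difference is between 2 models that both carried the antioxidant. All arrays come from 1 cell line, and the labels do not say whether arrays of a group were grown separately. The p-values therefore describe the spread among these arrays alone, and that spread may be technical.

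One label calls the material preadipocytes and another calls it adipose cells. The adipocyte markers Adipoq (adiponectin, 14.36 in CI, 14.31 in TNF and 14.37 in Dex) and Fabp4 (a fatty acid carrier, 14.39, 14.40 and 14.44) were high in all groups. Dlk1, a preadipocyte marker, read 12.91 in CI, 13.03 in TNF and 12.20 in Dex, so its signal was also well above the median gene of 7.92. Ptprc, which marks leukocytes, stayed at 4.60 to 4.66. The acute phase gene Saa3 was high in the TNF group (14.11 against 8.93 in CI and 8.92 in Dex), and the glucocorticoid target Fkbp5 was high in the Dex group (13.09 against 10.12 in CI and 10.44 in TNF). Median intensity was between 124.7 and 130.97 over the arrays. Pearson's r across all probe sets except controls was 0.996 to 0.998 between arrays of a group and 0.986 to 0.991 between groups, as a description.

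RefSeq promoter windows on the mouse build GRCm38.p6, from 250 bases before the start to 50 after it, were found for 8 of the 9 genes, and Fosl1 has no entry in the table. The windows below end at or before the start site and run 5′ to 3′ on the gene's strand. Capitals mark letter runs akin to the cyclic AMP response element TGACGTCA, to which Atf and Jun dimers can bind: the pattern TGACNTCA in Jun, and TACGTCA in Atf3 and, read on the other strand as TGACGTA, in Fos. These 3 promoters are shown because they hold such runs. Junb, Fosl2 and Ets2, whose values also differ between arrays or models below, have windows without them.
Jun, chr4:95052223-95052317, minus strand: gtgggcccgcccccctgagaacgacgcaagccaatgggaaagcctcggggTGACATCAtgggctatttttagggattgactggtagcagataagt
Fos, chr12:85473774-85473870, plus strand: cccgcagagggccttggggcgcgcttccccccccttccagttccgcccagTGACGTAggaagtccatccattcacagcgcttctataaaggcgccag
Atf3, chr1:191183334-191183392, minus strand: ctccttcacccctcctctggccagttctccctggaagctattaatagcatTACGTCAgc

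The run lies 45 to 38 bases before the start of Jun, 66 to 60 before that of Fos and 9 to 3 before that of Atf3. Both patterns (TGACNTCA and TACGTCA) were added after the sequences had been seen. On either strand, TGACNTCA, which includes the full TGACGTCA, occurred in 8.83% of the 32851 promoters and in 1 of the 8 members. TACGTCA occurred in 1.27% of promoters and in Fos and Atf3. The AP-1 site TGACTCA (5.20% of promoters), the full TGACGTCA (1.79%), the Ets core CCGGAA (14.9%) and the CArG box bound by serum response factor (1.63%) occurred in 0 of the 8 windows. The TATA box letters TATAAA, present in 13.6% of promoters, were found 33 bases before the start of Fos and at the start of Junb. A match is only a run of letters, and its absence covers only this window.

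Compared with the CI group, the TNF group had more Fosl1 and Ets2 mRNA and less Fos and Atf3 mRNA. Of these, only the Fosl1 call held with any 1 array left out. A gene was called when limma gave an adjusted p under 0.05 and an absolute difference over 0.5. By that rule 4 of the 9 genes were called, 2 higher and 2 lower in TNF, where 8.22% of all genes were called (3% higher and 5.23% lower). In Dex against CI 1 of the 9 was called, Fosl2, which was higher in Dex, against a background of 9% (3.33% higher and 5.67% lower). In TNF against Dex 0 of the 9 were called, against a background of 7.3% (4.14% higher and 3.16% lower), although 4 (Jun, Fosl2, Atf3 and Ets2) had an unadjusted limma p under 0.05, as did 32.3% of all genes. The 3 comparisons share arrays. The median difference of the 9 genes was 0.17 in TNF minus CI, 0.26 in Dex minus CI and -0.11 in TNF minus Dex, beside 0.03, 0.02 and 0.01 over all genes. Fewer cells expressing a gene and less RNA per cell cannot be told apart in bulk RNA.

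**Figure D1:**
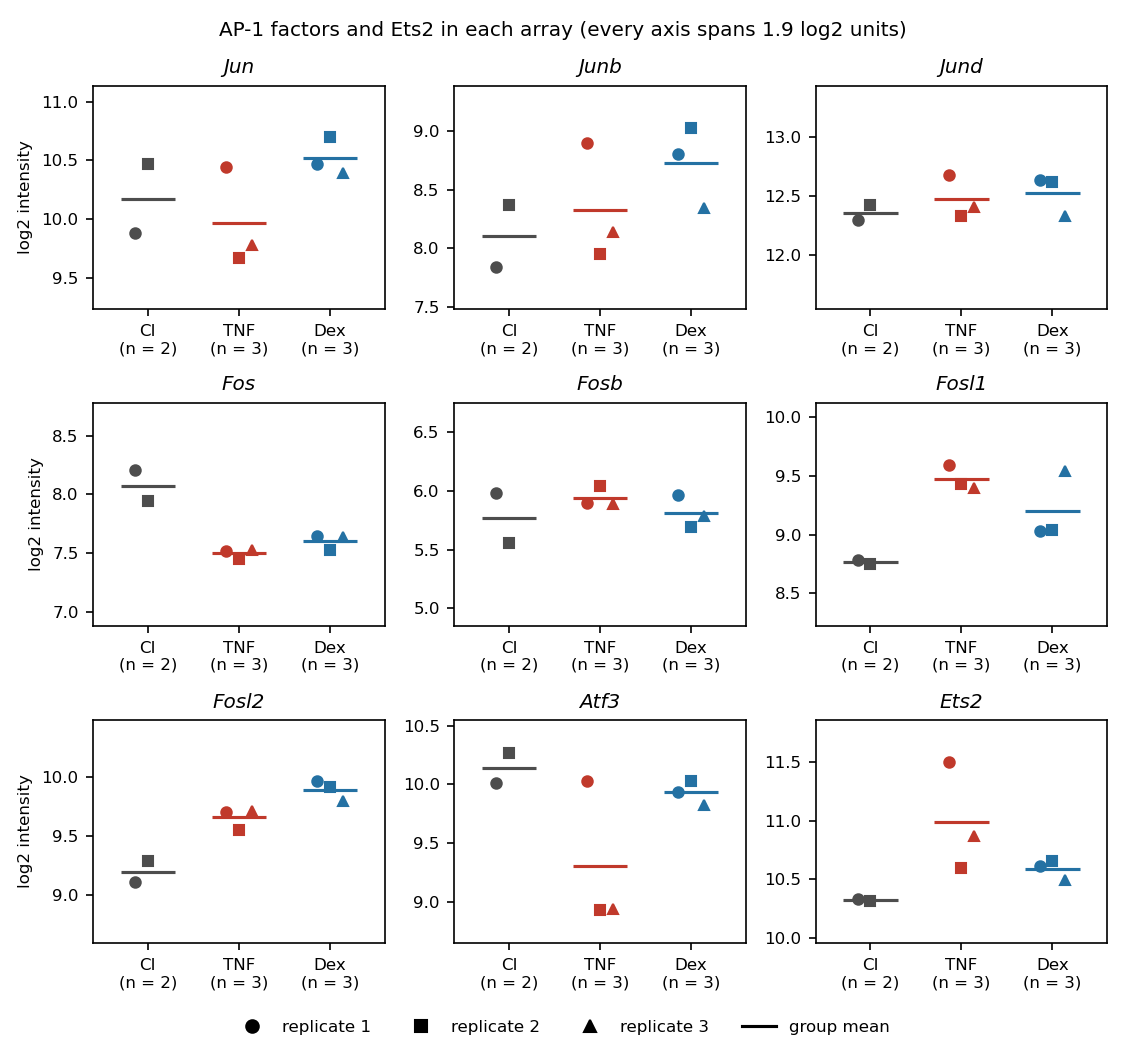
Log2 intensity (vertical axis) of each gene in each array, by group; symbols mark the replicate and lines the group mean. Every panel spans the same range of 1.9 log2 units around its own centre, so distances but not heights can be compared between genes. Fos is higher in both CI arrays than in the others, and TNF replicate 1 lies apart from the other TNF arrays for Jun, Junb, Atf3 and Ets2.

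Jun codes for c-Jun, the AP-1 subunit activated by the stress kinase JNK. Jun read 9.88 and 10.47 in the CI arrays, 10.45, 9.67 and 9.78 in the TNF arrays, and 10.47, 10.70 and 10.40 in the Dex arrays. The CI arrays lay far apart and TNF replicate 1 sat at the Dex level, so groups overlapped in all 3 comparisons. The difference was -0.21 in TNF minus CI (95% interval -0.69 to 0.27) and 0.35 in Dex minus CI (-0.13 to 0.83). Jun was 0.56 lower in TNF than in Dex by group mean (SE 0.19, limma adjusted p = 0.0665), which missed the threshold. Without TNF replicate 1 this difference was -0.80 and was called (limma adjusted p = 0.00254). The second Jun probe set gave -0.47 in TNF minus Dex over all arrays (limma adjusted p = 0.0431), which fell short of the minimum difference.

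Junb codes for an AP-1 subunit that often opposes c-Jun. Junb read 7.85 and 8.37 in the CI arrays, 8.90, 7.95 and 8.14 in the TNF arrays and 8.81, 9.02 and 8.34 in the Dex arrays. As for Jun, TNF replicate 1 was near the Dex arrays, while Dex replicate 3 was just below the higher CI array. The Dex group was 0.61 above CI (SE 0.27, 95% interval 0.03 to 1.20) with a limma adjusted p of 0.131. Its difference was 0.22 in TNF minus CI (-0.36 to 0.80) and -0.39 in TNF minus Dex (-0.92 to 0.13). Without TNF replicate 1, whose removal lowers the spread shared by all groups, Junb was called in Dex minus CI (0.61, limma adjusted p = 0.0314) and in TNF minus Dex (-0.68, limma adjusted p = 0.0235).

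Jund codes for the Jun protein that most cells hold at a steady level. Its values were 12.29 and 12.42 under CI, 12.68, 12.33 and 12.40 under TNF and 12.64, 12.62 and 12.33 under Dex. All groups overlapped. The intervals were -0.15 to 0.38 for TNF minus CI, -0.10 to 0.44 for Dex minus CI and -0.29 to 0.18 for TNF minus Dex, so differences of the minimum size of 0.5 lay outside them. The other Jund probe set had a mean of 6.40, below the median gene, and its differences were 0.05, 0.01 and 0.04.

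Fos codes for c-Fos, the classic serum-induced immediate-early protein. Fos read 8.21 and 7.94 in the CI arrays, 7.52, 7.45 and 7.53 in the TNF arrays and 7.65, 7.53 and 7.64 in the Dex arrays. Both CI arrays were above every TNF and Dex array. Fos was 1.49-fold lower in TNF than in CI (difference -0.58, SE 0.09, limma adjusted p = 0.000906). Without CI replicate 1, the higher of the CI arrays, the difference was -0.44 and fell short of the minimum of 0.5. In Dex minus CI it was -0.47 (SE 0.09, limma adjusted p = 0.00276), just short of that minimum, and without CI replicate 2 it was -0.60 and was called. TNF minus Dex was -0.11 (95% interval -0.28 to 0.07). Levels in TNF and Dex lay below the median gene, and the table has no measure of background, so the size of a change toward such levels is uncertain.

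Fosb codes for a Fos protein that in other tissues accumulates after repeated stimulation. It read 5.98 and 5.56 under CI, 5.90, 6.04 and 5.88 under TNF and 5.97, 5.70 and 5.78 under Dex, at the level of the lowest 15.3% to 16.6% of genes. The ranges of all groups overlapped. Differences were 0.17, 0.05 and 0.13 in the 3 comparisons, and the widest limit of any interval was 0.44.

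Fosl1 codes for Fra-1, a Fos protein without the transactivation domain of c-Fos that is known for invasive and inflamed cells. Fosl1 read 8.78 and 8.75 in the CI arrays, 9.59, 9.43 and 9.40 in the TNF arrays and 9.03, 9.04 and 9.55 in the Dex arrays. Every TNF array was above both CI arrays, and Dex replicate 3 reached the TNF level while the other Dex arrays lay between the groups. Fosl1 was 1.63-fold higher in TNF than in CI (difference 0.71, SE 0.14, limma adjusted p = 0.00385), and its second probe set gave 0.65 (limma adjusted p = 0.0140). Dex minus CI was 0.44 (SE 0.14, limma adjusted p = 0.0431), under the minimum difference with all arrays. That difference was called without Dex replicate 1 (0.53) and without Dex replicate 2 (0.52). TNF minus Dex was 0.27 (95% interval -0.0008 to 0.54).

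A measure of RNA quality followed Fosl1 in some arrays only. The beta-actin control probe sets differed between the 3′ and 5′ end of the transcript by 0.66 and 0.54 in CI. The TNF arrays had 0.74, 0.71 and 0.83 and the Dex arrays 0.49, 0.49 and 0.75, where a larger value means less signal from the 5′ end. Dex replicate 3 was thus closer to TNF in this measure as well. Dex replicates 1 and 2 were below both CI arrays in this measure but above them in Fosl1. With that value as a covariate, Fosl1 was 0.48 higher in TNF than in CI (limma adjusted p = 0.0330), under the minimum difference. TNF minus Dex was then 0.01. Every TNF array exceeded both CI arrays in this measure. The covariate fits, here and for Atf3 and Ets2 below, therefore cannot tell RNA quality apart from the TNF and CI treatments.

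Fosl2 codes for Fra-2, the other Fos protein without that domain, which has a reported role in leptin expression of fat cells. Fosl2 read 9.11 and 9.29 under CI, 9.71, 9.56 and 9.71 under TNF and 9.97, 9.92 and 9.80 under Dex. The 3 groups did not overlap, with CI lowest and Dex highest. Fosl2 was 1.62-fold higher in Dex than in CI (difference 0.70, SE 0.09, limma adjusted p = 0.00019), and 0.61 to 0.79 with any 1 array left out. In TNF minus CI the difference was 0.46 (SE 0.09, limma adjusted p = 0.00364), under the minimum, and it was over 0.5 and called without CI replicate 2 (0.55) or TNF replicate 2 (0.51). TNF minus Dex was -0.24 (SE 0.08, limma adjusted p = 0.0583). The second probe set gave smaller differences, 0.25 in Dex minus CI (limma adjusted p = 0.175) and 0.11 in TNF minus CI, so the 2 probe sets of Fosl2 disagreed in size, and their median was 0.48 in Dex minus CI and was not called.

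Atf3 is induced by amino acid shortage, endoplasmic reticulum stress and Toll-like receptor signals. Atf3 read 10.01 and 10.27 in the CI arrays, 10.03, 8.93 and 8.94 in the TNF arrays and 9.93, 10.03 and 9.83 in the Dex arrays. TNF replicates 2 and 3 were more than 0.8 below every other array, and TNF replicate 1 was level with CI and Dex. The TNF mean was 1.79-fold lower than that of CI (difference -0.84, SE 0.26, limma adjusted p = 0.0394). That call was lost in 13 of 21 alternatives, among them the fits without either CI array, without TNF replicate 2 or 3 and without Dex replicate 1 or 2. The difference ranged from -1.20, without TNF replicate 1, to -0.65, and its limma adjusted p from 1.7e-05 to 0.23. With the RNA quality covariate described for Fosl1 it was -0.67 (limma adjusted p = 0.196) and was not called. TNF minus Dex was -0.63 (SE 0.23, limma adjusted p = 0.0816) with all arrays and -0.996 (limma adjusted p = 1.94e-05) without TNF replicate 1. Dex minus CI was -0.21 (95% interval -0.78 to 0.37).

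Ets2 codes for a transcription factor with a winged helix Ets domain that recognises a GGAA core. Ets2 read 10.33 and 10.32 under CI, 11.50, 10.60 and 10.87 under TNF and 10.62, 10.66 and 10.49 under Dex. Each TNF array was above both CI arrays, TNF replicate 1 by the widest margin, and TNF replicate 2 was within the Dex range. Ets2 was 1.58-fold higher in TNF than in CI (difference 0.66, SE 0.19, limma adjusted p = 0.0294). It was not called without TNF replicate 1 (0.41, under the minimum), nor without CI replicate 1 (0.67, limma adjusted p = 0.114) or CI replicate 2 (0.66, limma adjusted p = 0.140). With the RNA quality covariate described for Fosl1 the difference was 0.72 (limma adjusted p = 0.0763) and the call was lost. It was also lost when only TNF and CI were fitted (limma adjusted p = 0.0611) and with a variance trend and robust moderation (limma adjusted p = 0.0602). Its 2 other probe sets gave 0.54, which was called (limma adjusted p = 0.0126), and 0.44, which was not (limma adjusted p = 0.0661). Dex minus CI was 0.26 (95% interval -0.16 to 0.69) and TNF minus Dex 0.40 (SE 0.17, limma adjusted p = 0.133). One of those probe sets was called in TNF minus Dex (0.60, limma adjusted p = 0.00346), but at a mean of 5.67 it lay well below the median gene.

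**Figure D2:**
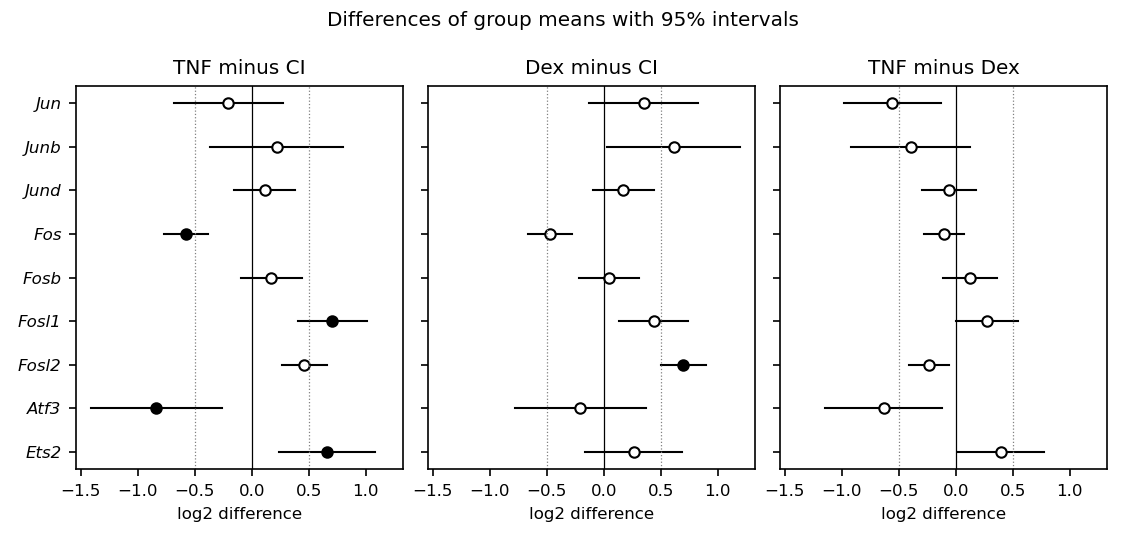
Differences of group means (points, log2 scale) with 95% intervals (lines) for the 9 genes in the 3 comparisons; filled points were called and dotted lines mark the minimum difference of 0.5. Fos and Atf3 lie to the left and Fosl1 and Ets2 to the right in TNF minus CI, Fosl2 alone is filled in Dex minus CI, and no point is filled in TNF minus Dex.

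Arrays of the groups did not overlap for 4 of the 9 genes in TNF against CI (Fos, Fosl1, Fosl2 and Ets2), 4 in Dex against CI (the same 4 genes) and 1 in TNF against Dex (Fosl2). Over all genes the shares without overlap were 53%, 48% and 35.9%, so such separation was common in this data set. Jun, Junb, Jund, Fosb and Atf3 overlapped in every comparison.

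Several of these genes varied widely between arrays of the same group. In TNF the SD over the 3 arrays was 0.63 for Atf3, 0.50 for Junb, 0.46 for Ets2 and 0.42 for Jun, where the median gene had 0.08. Between 99.4% and 99.9% of genes had a smaller SD than these 4. Over the 2 CI arrays Jun had an SD of 0.42 (above 99.7% of genes) and Junb 0.37 (above 99.5%). In Dex, Junb (0.35) and Fosl1 (0.30) exceeded 99.5% and 98.8% of genes, and Jun had 0.16. By contrast Fos had 0.04 in TNF and 0.07 in Dex, and Ets2 had 0.01 in CI. Junb was above at least 99.5% of genes in every group, while the other variable genes differed between groups.

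TNF replicate 1 lay above the other TNF arrays for the genes with the wide spread. It exceeded the mean of TNF replicates 2 and 3 by 1.09 for Atf3, 0.85 for Junb, 0.76 for Ets2, 0.72 for Jun and 0.32 for Jund. The same gap was 0.18 for Fosl1, 0.07 for Fosl2, 0.03 for Fos and -0.06 for Fosb. A gap over 0.5 occurred in 253 of 18193 genes (1.39%), in 4 of these 9 (44.4%) and in 13 of 24 other immediate-early genes (54.2%). Egr1, a zinc finger factor induced with Fos, had a gap of 2.01, and its relative Egr2 had 1.59. The zinc finger genes Klf4 (0.96) and Klf6 (0.81), the growth regulator Myc (0.86) and the MAP kinase phosphatase Dusp1 (0.77) were also higher in that array. No scan date or batch is given for the arrays, and what set TNF replicate 1 apart was not tested.

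**Figure D3:**
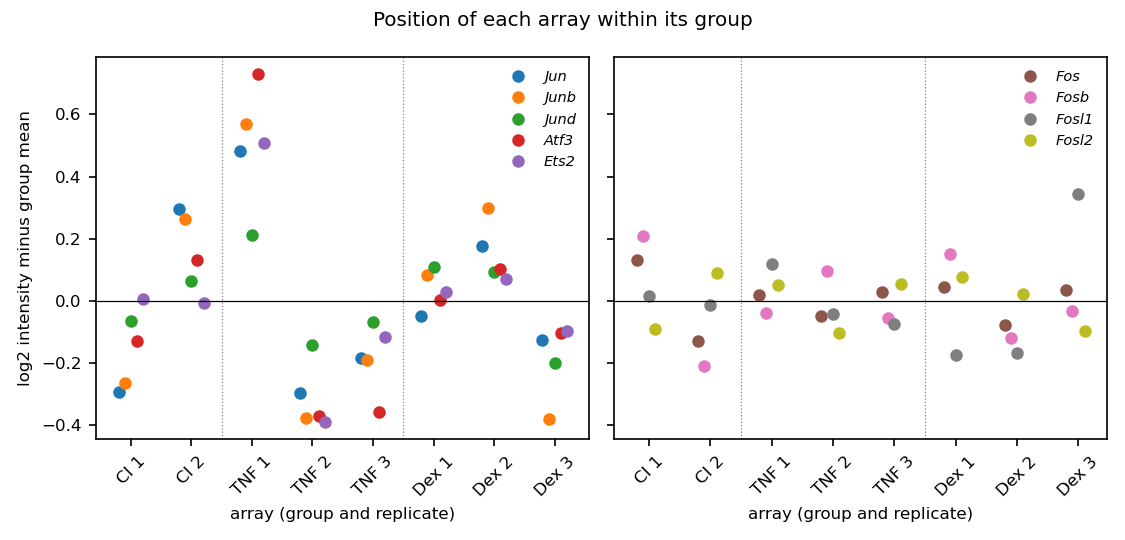
Log2 intensity of each array minus its group mean (vertical axis), for the Jun genes, Atf3 and Ets2 at left and the Fos genes at right. TNF replicate 1 is above its group mean for all 5 genes at left, while Fos, Fosb and Fosl2 stay near 0 there, and Dex replicate 3 is high for Fosl1.

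Arrays of a group took similar positions for the Jun genes, Atf3 and Ets2. Pearson's r of these deviations over the 8 arrays was 0.94 for Jun and Junb, 0.95 for Junb and Jund, 0.91 for Jun and Atf3, and 0.94 for Atf3 and Ets2, and the lowest among these 5 genes was 0.80, for Jun and Ets2. Fosl2 shared part of this order, with 0.66 for Jun, 0.75 for Junb and 0.77 for Jund. For Fos it was -0.48 with Jun, -0.12 with Atf3 and 0.77 with Fosb. These values are a description over 8 arrays that share group means, and TNF replicate 1 lies at one end of most of them.

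Leaving out single arrays changed which genes were called. In TNF minus CI between 1 and 4 of the 9 were called, the lowest without CI replicate 1, where only Fosl1 was left. In TNF minus Dex the count was 3 without TNF replicate 1 (Jun, Junb and Atf3), 1 without TNF replicate 2 (Ets2, 0.59) and 0 otherwise. Fosl1 in TNF minus CI and Fosl2 in Dex minus CI were called in all 8 of these fits.

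**Figure D4:**
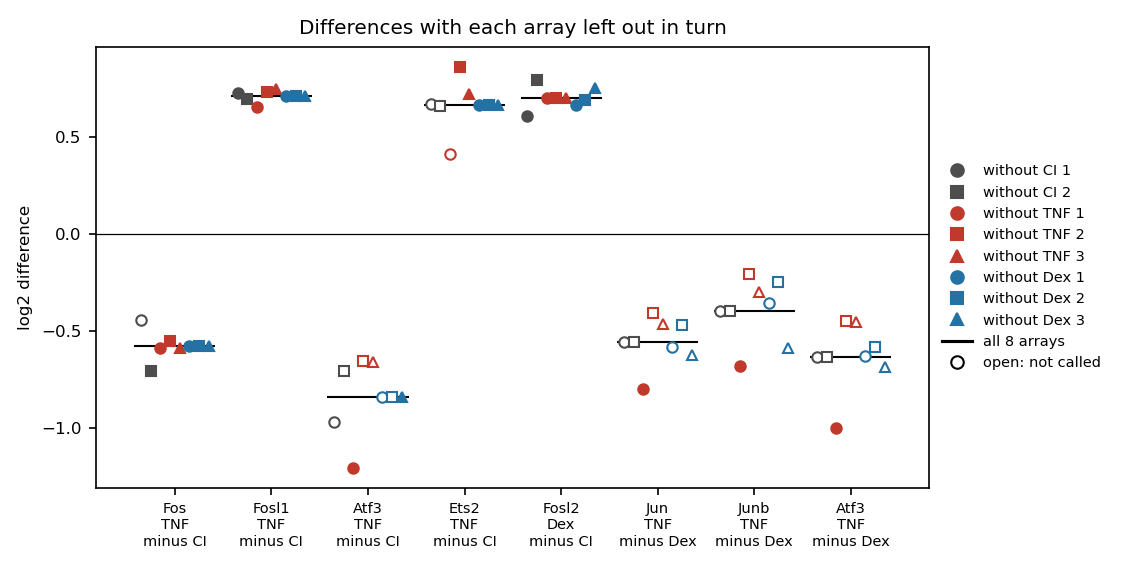
Log2 difference (vertical axis) of 8 gene and comparison pairs when each array in turn is left out; lines give the value with all 8 arrays and open symbols values that were not called. Fosl1 (TNF minus CI) and Fosl2 (Dex minus CI) are filled throughout, whereas Jun and Junb in TNF minus Dex are filled only without TNF replicate 1.

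The genes whose profile over the 8 arrays was most like that of each called member are named as a description. For Fos they were Cdhr3, Tcaf1 and Rasa2 (Pearson's r of 0.97 each), and for Fosl1 Erich6b, Edar and Ccn2 (0.98 each). For Fosl2 they were Fnip2, Sun2 and Mllt6 (0.996, 0.994 and 0.988). Atf3 was matched by Chac1 (0.99), Trib3 (0.99) and Cdkal1 (0.97), and Ets2 by Mat1a, Iyd and Pnp (0.98 each). Pearson's r takes no account of level or size of change. Mat1a (mean 4.57) and Iyd (6.07) lay well below the median gene. The SD over the 8 arrays was only 0.08 for Iyd, 0.09 for Edar and 0.12 for Erich6b. Chac1 read 12.11 and 12.36 in the CI arrays, 11.86, 10.52 and 10.50 in the TNF arrays and 11.95, 11.87 and 11.58 in the Dex arrays, with TNF replicate 1 again above the other TNF arrays. Fnip2 was, like Fosl2, lowest in CI and highest in Dex, from 7.97 and 8.14 in CI through 8.50, 8.38 and 8.55 in TNF to 8.75, 8.69 and 8.66 in Dex.

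Among partners and relatives of AP-1 in the basic leucine zipper class, 21 of 23 listed genes had a named probe set. In TNF minus CI 1 was higher and 2 lower (14.3% called, median 0.07), in Dex minus CI 4 were higher (19.0%, median 0.07), and in TNF minus Dex 3 were lower (14.3%, median -0.04). Over all genes 8.22%, 9% and 7.3% were called in these comparisons. Cebpd, an early adipogenic factor induced by glucocorticoids and cytokines, read 9.62 and 9.87 under CI, 10.73, 10.11 and 10.31 under TNF and 12.30, 12.19 and 11.92 under Dex. It was 5.26-fold higher in Dex than in CI (difference 2.40, limma adjusted p = 1.84e-06) and 0.64 higher in TNF than in CI. Maf, a large Maf factor, was 1.07 higher in Dex than in CI, and Cebpb, which acts beside Cebpd in adipogenesis, 0.66 higher. The small Maf protein gene Mafg (-0.61) and the cyclic AMP response modulator Crem (-0.53) were lower in TNF than in CI. Without CI replicate 2 neither was called, and 2 genes were then higher and 0 lower. The TNF minus CI counts were 0 and 1 without TNF replicate 1, where Cebpd and Crem were not called, 0 and 3 without CI replicate 1, where Cebpd was not called, 3 and 3 without TNF replicate 2 and 2 and 3 without TNF replicate 3. Without CI replicate 1 only Cebpd and Maf, 2 genes, were higher in Dex than in CI. Without TNF replicate 1, 5 genes were lower in TNF than in Dex (Cebpd, Maf, Crem, Cebpb and Atf4).

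Immediate-early genes outside the AP-1 and Ets families were called in both directions in each comparison. Of 24 measured, 2 were higher and 6 lower in TNF than in CI (33.3% called, median -0.10), 9 higher and 3 lower in Dex than in CI (50%, median 0.24), and 2 higher and 11 lower in TNF than in Dex (54.2%, median -0.43). The shares over all genes were 8.22%, 9% and 7.3%. The TNF minus CI counts were 2 higher and 10 lower without TNF replicate 1 but 1 and 1 without CI replicate 2. In Dex minus CI they were 4 and 2 without CI replicate 1 and 5 and 1 without Dex replicate 2. The lower count in TNF minus Dex was 14 without TNF replicate 1 but 8 without TNF replicate 2 or 3 or Dex replicate 1 or 2. The higher count there was 1 to 4 with 1 array left out. The list was written with earlier results of these data known, so its counts are a description.

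Errfi1, an inhibitor of the EGF receptor, read 9.92 and 9.90 in the CI arrays, 9.17, 8.66 and 8.74 in the TNF arrays and 11.34, 11.14 and 10.44 in the Dex arrays. No groups overlapped for Errfi1, which was 4.34-fold lower in TNF than in Dex (difference -2.12, SE 0.20, limma adjusted p = 1.92e-05). Dusp1, which switches off JNK and p38, was -0.81 in TNF minus CI, 0.73 in Dex minus CI and -1.53 in TNF minus Dex. The first of these was not called without CI replicate 2 or TNF replicate 3, nor the second without CI replicate 1 or Dex replicate 1 or 2. Zfp36, whose protein speeds the decay of cytokine and Fos mRNA, read 8.94 and 9.04 under CI, 8.72, 8.68 and 8.71 under TNF and 10.33, 10.45 and 9.97 under Dex. It was 2.92-fold lower in TNF than in Dex (limma adjusted p = 1.97e-06), and its TNF minus CI difference of -0.29 was not called. Dusp1 and Zfp36 are known as glucocorticoid-induced genes.

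Other immediate-early genes went in other directions. Ccn1, a secreted matrix protein, was 3.94-fold higher in Dex than in CI (difference 1.98, limma adjusted p = 9.61e-05). Ier3, a stress-induced survival gene, was 1.13 higher in TNF than in CI (limma adjusted p = 0.000911), and Ccn2, another matrix protein, 0.62 higher. Phlda1 (-1.11), Klf4 (-0.80) and Ier5 (-0.57) were lower in Dex than in CI. None of these 3 was called without CI replicate 2, nor was Ccn2 in TNF minus CI. Ccn2 read 5.65 to 6.47 over all arrays, below the median gene, so the size of its change is uncertain. Egr1 read 10.47 and 10.41 in the CI arrays, 10.26, 8.13 and 8.38 in the TNF arrays and 9.44, 9.31 and 8.99 in the Dex arrays, and was 1.52 lower in TNF than in CI by group mean (limma adjusted p = 0.0366), a call lost without CI replicate 1 or 2, TNF replicate 2 or 3, or Dex replicate 2. As with Atf3, TNF replicate 1 lay near the CI arrays and the other TNF arrays far below.

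**Figure D5:**
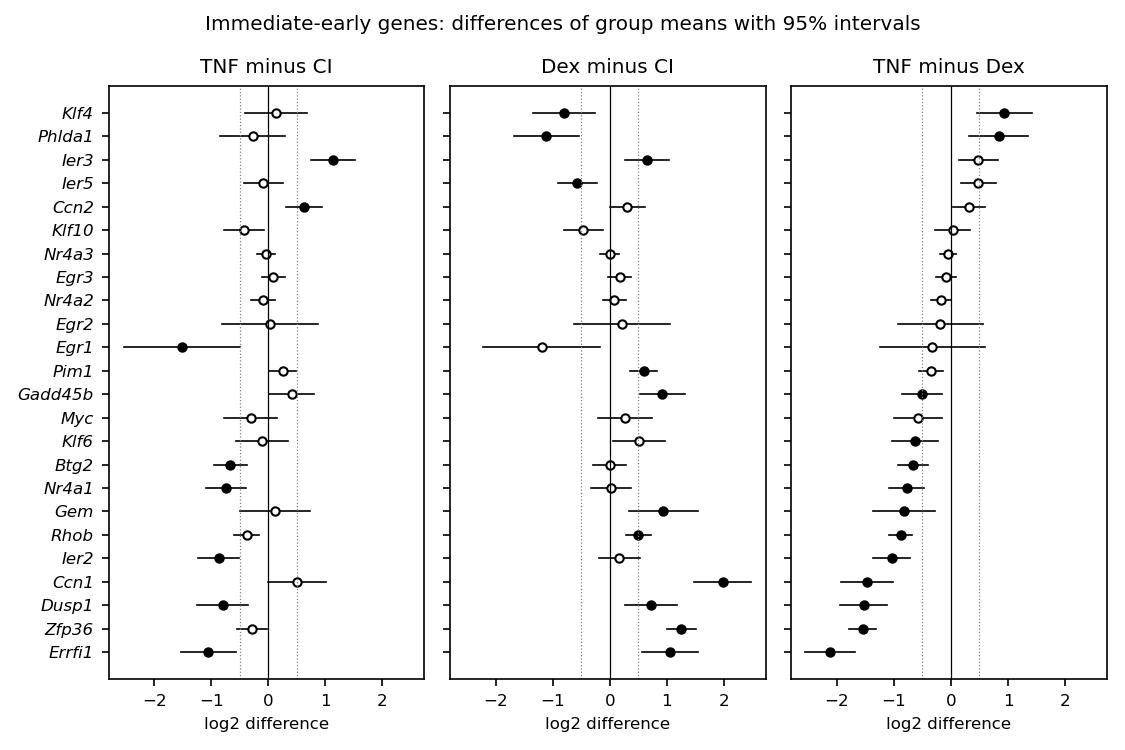
Differences of group means (points, log2 scale) with 95% intervals (lines) for 24 immediate-early genes outside the AP-1 and Ets families, ordered by TNF minus Dex; filled points were called and dotted lines mark 0.5. Errfi1, Zfp36, Dusp1 and Ccn1 lie furthest to the left in TNF minus Dex, and Klf4 and Phlda1 are filled to the right.

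Kinases phosphorylate Jun, Fos and Ets proteins, and ubiquitin ligases remove them. Of 27 listed genes 21 had a named probe set, of which 4 were lower in TNF than in CI (19.0% called), 1 higher and 3 lower in Dex than in CI (19.0%), and 1 lower in TNF than in Dex (4.76%). Beside these shares stand 8.22%, 9% and 7.3% over all genes. Rps6ka3, which codes for the ERK-activated kinase RSK2, read 10.32 and 10.41 under CI, 9.18, 9.12 and 9.19 under TNF and 8.95, 8.81 and 8.91 under Dex. It was 2.29-fold lower in TNF than in CI and 2.78-fold lower in Dex than in CI. Rps6ka5, which codes for the chromatin kinase MSK1, was lower in both as well (-0.71 and -0.85). Serum response factor, Srf, which drives Fos transcription, was 0.52 lower by group mean in TNF than in CI (limma adjusted p = 0.00149), just past the minimum difference, and was not called without CI replicate 1 (-0.41) or TNF replicate 3 (-0.49), or with the replicate number as a block (-0.49). With that block 2 of the list were lower in TNF than in CI in place of 4, as Map2k6 (-0.51 without the block, -0.47 with it) was not called either. The JNK gene Mapk8 was not called in any comparison (-0.15, -0.31 and 0.16), nor was Mapk9 (-0.36, 0.06 and -0.42). Map2k6, an activator of p38, was 0.92 lower in Dex than in CI, and Mef2d, a MADS-box factor, 0.85 higher.

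Genes often described as AP-1 targets include proteases, cytokines and metal-binding proteins. Of 20 measured of 23 listed, 10 were higher and 0 lower in TNF than in CI (50% called, median 0.55). The higher count was 7 without CI replicate 1 (median 0.48), 9 without CI replicate 2 and 12 without TNF replicate 2. In Dex minus CI 4 were higher and 6 lower (50%, median -0.08), and in TNF minus Dex 9 were higher and 2 lower (55.0%, median 0.34). Of all genes 8.22% were called in TNF minus CI, 9% in Dex minus CI and 7.3% in TNF minus Dex. Many of the listed genes also answer to NF-kB or to the glucocorticoid receptor. The matrix metalloproteinase Mmp3 read 6.75 and 6.67 in the CI arrays, 8.28, 8.14 and 8.14 in the TNF arrays and 5.54, 5.60 and 5.47 in the Dex arrays, so that it was 6.27-fold higher in TNF than in Dex (limma adjusted p = 7.57e-10). The chemokine Ccl2 was 1.52 higher in TNF and 1.12 lower in Dex than in CI. Timp1, a metalloproteinase inhibitor, was 1.43 higher in TNF than in CI and 2.06 higher than in Dex. The metallothioneins Mt2 (1.75) and Mt1 (1.49) were higher in Dex than in CI, while the cytokine Il6 was 4.16-fold lower in Dex than in CI and differed by -0.05 in TNF minus CI. The latter value rests on TNF replicate 1, since Il6 read 8.21 there and 7.10 and 7.18 in the other TNF arrays. Without that array the difference was -0.41 (limma adjusted p = 0.00891). Mmp3 and Il6 lay well below the median gene in Dex. Without a measure of background, the size of their fold changes is uncertain.

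Other Ets family members bind the same core as Ets2. Of 21 measured of 23, 2 were higher and 1 lower in TNF than in CI (14.3%), 1 higher and 1 lower in Dex than in CI (9.52%), and 2 higher and 1 lower in TNF than in Dex (14.3%). The called shares of all genes were 8.22%, 9% and 7.3%, so the Dex minus CI share of the list was near that of all genes. Spib, a lymphoid Ets factor, read 6.69 and 6.54 under CI, 8.05, 7.76 and 7.94 under TNF and 6.90, 6.69 and 6.79 under Dex. It was 2.46-fold higher in TNF than in CI (limma adjusted p = 9.56e-06). Elk3, a partner of serum response factor, was 0.85 higher in TNF than in CI. Its relative Elk1 was lower in TNF (-0.50) and in Dex (-0.51) than in CI, both close to the minimum difference, and neither was called without CI replicate 2. Etv3, an Ets repressor, was 0.61 higher in Dex than in CI and not called without CI replicate 1 (0.42).

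A last list held genes that the study discusses beside Jun or Ets2, with Gata3 and Cebpb, which it treats as an example of their own. Of its 12 genes 11 had a named probe set. In TNF minus CI 1 was lower, Gclm (-0.53, limma adjusted p = 0.00810), which codes for a subunit of the enzyme that starts glutathione synthesis, and without CI replicate 2 or TNF replicate 2 the list had 0 lower. In Dex minus CI Cebpb was higher and Gata3, an anti-adipogenic factor, lower (-0.61, limma adjusted p = 0.00476). Gata3 read 5.51 and 5.59 in the CI arrays and 4.81 to 5.04 in the Dex arrays. These levels lie well below the median gene, so the size of its change is uncertain. Cebpb was not called without CI replicate 1 (limma adjusted p = 0.0895), nor Gata3 without CI replicate 2 (limma adjusted p = 0.0509). In TNF minus Dex Gstm1, a glutathione transferase, was lower (-0.68, limma adjusted p = 6.49e-05), and without TNF replicate 1 there were 3 lower genes (Gstm1, Cebpb and Myc). Called shares were 9.09%, 18.2% and 9.09%, of which the second rests on Cebpb and Gata3 alone. Runx1 (0.12, 0.05 and 0.07) and Creb1 (0.07, 0.11 and -0.04) were not called in any comparison.

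Markers of cell types also differed between the groups in which these factors were compared. Of 11 adipocyte markers measured, 6 were lower in TNF than in CI (54.5%, Retn -0.95, Lep -0.93 and Cidec -0.85 among them). In Dex minus CI 1 was higher and 3 were lower (36.4%), and in TNF minus Dex 3 were lower (27.3%). Among all genes 8.22%, 9% and 7.3% were called in these comparisons. Over these markers the summed intensity was 93065 to 95273 in TNF against 118442 to 119063 in CI and 116638 to 124330 in Dex. Lep read 7.17 and 6.26 in the CI arrays and 5.69 to 5.87 in the TNF and Dex arrays. All of these lie below the median gene, so the size of its change is uncertain. Only 5 adipocyte markers were lower in TNF than in CI when TNF replicate 2 was omitted. The count was also 5 with TNF replicate 3 omitted, or with the replicate number as a block. With CI replicate 2 as the only CI array, the median of TNF minus CI was -0.49, beside -0.52 with all arrays. Of 9 preadipocyte and fibroblast markers 1 was higher in TNF than in CI (11.1%, Pdgfrb 0.93). In Dex minus CI 3 were lower (33.3%, Col1a1 -1.14 among them). In TNF minus Dex 5 were higher (55.6% called, median 0.72, Pdgfrb 1.34 and Col1a1 0.99 among them). With 1 array left out that count was 5 only without TNF replicate 2, and it was 4 without any other array. The lowest medians were 0.48, without TNF replicate 1, and 0.51, without Dex replicate 3. The sums were 47135 to 53864 in TNF, 45396 to 46908 in CI and 32169 to 36167 in Dex. Of 12 macrophage and leukocyte markers Cd14 (1.44) and Lyz2 (0.55) were higher in TNF than in CI, Cd14 (0.98) in Dex than in CI and Lyz2 (0.95) in TNF than in Dex, with sums of 4237 to 4481 in TNF, 3099 to 3131 in CI and 3022 to 3080 in Dex, while Ptprc stayed near the lowest signals. Called shares of this last list were 16.7%, 8.33% and 8.33% in the 3 comparisons. The part of all these markers in the differences of the AP-1 genes and Ets2 was not tested.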

How the data were processed

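RNA of 8 samples was labelled with biotin and hybridised to Affymetrix whole-genome mouse arrays of 45101 probe sets. The deposited intensity values are linear and were made by the authors, whose methods name RMA (affyPLM). The sources used here do not state if these are RMA values taken back from the logarithm. Values were taken to log2 with no pseudocount. The 64 control probe sets were left out, as were probe sets with several symbols (932) or none (9160). Of 18193 genes, 9010 had more than 1 probe set, and the one with the highest mean was used.

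The 3 groups were fitted together with limma (3.58.1, R 4.3.3; lmFit and eBayes, two-sided, 5 residual degrees of freedom) and Benjamini-Hochberg adjustment over all genes, with the thresholds of the study's methods (adjusted p under 0.05, absolute log2 difference over 0.5). Other probe sets came from a fit of all 34945. The fit was tested on simulated data. Members, lists and the rule for named genes (every member, up to 3 called genes per list, direction and comparison, and 3 genes of most similar profile per called member) were chosen with earlier results of these data known. Arrays have no read depth, and their number limits precision. Alternatives covered scaling, low values, pseudocount, probe sets, replicate block, samples fitted, variance moderation, array weights, RNA quality, thresholds and single arrays left out. Figures were drawn with matplotlib 3.10.9 in Python 3.11.15.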

Additional observations from a re-analysis of the deposited data

How the results depend on the processing

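Over the 9 genes, 3 comparisons and all alternatives, 505 values kept direction and side of the threshold, 27 lost a call, 19 gained one and 10 changed sign. Most of these values were not called in the main fit and so had no call to lose. In TNF minus CI the call was lost in 13 of 21 alternatives for Atf3, 8 of 21 for Ets2, 2 of 21 for Fosl1 and 2 of 20 for Fos. Fosl2 in Dex minus CI lost its call in 2 of 21. The count of the 9 genes called was 0 in Dex minus CI with the median of a gene's probe sets, and 2 in TNF minus CI and 2 in Dex minus CI when only the groups compared were fitted. It was 2 in TNF minus CI with a variance trend and robust moderation, 2 in Dex minus CI and 2 in TNF minus Dex with array weights (Jun and Atf3 in the latter), and 2 in TNF minus CI with the beta-actin covariate (Fos and Fosl2, with Fosl1, Atf3 and Ets2 lost). With no minimum difference it was 3 in Dex minus CI, and with a minimum of 1 it was 0 in TNF minus CI and 0 in Dex minus CI. Leaving out 1 array gave 1 to 4 of the 9 genes in TNF minus CI, 1 to 2 in Dex minus CI and 0 to 3 in TNF minus Dex. In the same order of comparisons, the genes called overall were 2727, 2978 and 2356 with every probe set as a feature, 4181, 3925 and 3800 with no minimum difference and 258, 423 and 342 with a minimum of 1, and 1237 to 1605, 1552 to 1795 and 1284 to 1420 with 1 array left out. Values that changed sign were not called before or after. They were Jun in TNF minus CI (0.0009), Junb in TNF minus Dex (0.0269) and Jund in TNF minus Dex (0.14) with the beta-actin covariate. With 1 array left out, TNF minus CI ranged from -0.50 to 0.0868 for Jun, -0.0646 to 0.48 for Junb and -0.0368 to 0.38 for Fosb, Dex minus CI from -0.16 to 0.26 for Fosb, and TNF minus Dex from -0.16 to 0.0141 for Jund. Where no construction of the alternative shows the cause, the cause was not tested.

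Whether replicate numbers in the titles pair the samples was not settled. Pearson's r of same-numbered deviations from the group means was between -0.09 and 0.33. It was highest for TNF and Dex replicate 1 (0.33) and TNF and Dex replicate 3 (0.21). Arrays with different numbers were not compared in this way, so these values cannot show or exclude pairing. With the number as a replicate block 3, 1 and 0 of the 9 genes were called in the 3 comparisons (1534, 1730 and 1339 of all genes), and Atf3 in TNF minus CI was no longer called (-0.72, limma adjusted p = 0.0701). In the kinase and turnover list 2 genes in place of 4 were lower in TNF than in CI. The table gives no background measure, so levels below the median gene, as for Fosb, bound no difference firmly.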
